A study of Mus musculus with 8 samples.

Results

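The 10 genes of cholesterol side-chain cleavage, androgen synthesis and theca cells followed here in mouse ovarian follicles were Star, Cyp11a1, Cyp17a1, Hsd3b1, Hsd3b6, Fdx1, Fdxr, Por, Insl3 and Mgarp. They were chosen by gene name, and all 10 were found among the 55157 genes of the expression table. Follicles of type 7 to 8, a morphological stage, came from the ovaries of Kunming mice, an outbred stock, at postnatal day 21. The 4 control libraries were from mice given pregnant mare serum gonadotropin (PMSG), which acts mainly through the receptor of follicle-stimulating hormone, and normal saline. The 4 melatonin libraries were from mice given PMSG and melatonin, and both groups were sampled 24 hours after injection. No group without PMSG was compared, so levels under PMSG were measured and not a response to it. The labels do not say whether replicates were separate animals or pools, so the p-values measure the spread between these libraries, which may be technical.

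Androgens of the ovarian follicle are made in the theca, the cell layer outside the basement membrane, and are turned into estrogen by aromatase in the granulosa cells. Cholesterol is moved into mitochondria by STAR and its side chain is cut by CYP11A1, which receives electrons from NADPH through ferredoxin reductase (Fdxr) and ferredoxin (Fdx1). The product, pregnenolone, is oxidised by 3-beta-hydroxysteroid dehydrogenase in a step shared by all active steroid hormones, and CYP17A1, fed with electrons by cytochrome P450 oxidoreductase (Por), makes the androgen precursors.

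Sequences are shown for some of the genes the results turn on. The promoter windows, from RefSeq on GRCm38.p6, hold the 250 bases before a RefSeq start, 5′ to 3′ on the gene's strand. Capitals mark matches to motifs of factors known from steroid-producing or housekeeping promoters. For Cyp11a1 the capitals mark the short site AGGTCA of steroidogenic factor 1 (the product of Nr5a1). In Fdx1 and Mgarp they mark a GATA site, GATAA, and a GC box, which reads GGGCGG on 1 strand and CCGCCC on the other. The 3 windows belong to genes whose values in melatonin replicates 1 to 3 lay below all controls.
Cyp11a1 promoter, chr9:58014702-58014951, plus strand: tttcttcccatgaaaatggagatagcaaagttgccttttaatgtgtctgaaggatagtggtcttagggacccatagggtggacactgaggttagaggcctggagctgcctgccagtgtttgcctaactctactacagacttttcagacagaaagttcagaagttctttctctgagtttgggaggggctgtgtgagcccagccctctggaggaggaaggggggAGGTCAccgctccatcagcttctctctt
Fdx1 promoter, chr9:51963603-51963852, minus strand: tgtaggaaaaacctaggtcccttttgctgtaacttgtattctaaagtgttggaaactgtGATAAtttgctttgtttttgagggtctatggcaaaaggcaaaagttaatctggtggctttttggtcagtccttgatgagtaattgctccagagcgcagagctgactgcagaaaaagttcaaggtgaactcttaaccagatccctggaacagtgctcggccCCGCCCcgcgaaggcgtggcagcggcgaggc
Mgarp promoter, chr3:51396548-51396797, minus strand: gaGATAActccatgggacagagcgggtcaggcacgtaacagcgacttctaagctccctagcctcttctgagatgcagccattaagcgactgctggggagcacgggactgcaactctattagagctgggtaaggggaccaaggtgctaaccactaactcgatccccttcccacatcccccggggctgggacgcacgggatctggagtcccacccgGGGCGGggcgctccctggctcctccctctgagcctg
The Cyp11a1 window lies inside the GENCODE span of the gene, and its match lay 28 to 23 bases before the start. The Fdx1 matches lay at 191 to 187 and 31 to 26 bases, and the Mgarp matches at 248 to 244 and 36 to 31 bases before the start. Both strands of 32851 promoter windows of the same length were searched for the same letters, and AGGTCA was found in 14.02%, GATAA in 22.58% and GGGCGG in 32.74% of them. The longer site AAGGTCA (4.08% of windows, each of which also counts for AGGTCA) and the TATA box TATAAA (12.37%) had no match in the 9 windows of the 8 genes that RefSeq matched. TGACG, part of the cyclic AMP response element, was found in 17.77% of all windows and, among the 8 matched genes, in a second Cyp11a1 window that starts further upstream. Star and Cyp17a1 were not matched. The same letters were also found in genes without that pattern of low values: GATAA in the windows of Hsd3b1, Hsd3b6 and Fdxr, and the GC box in those of Fdxr, Por and Insl3. These matches describe letters and not binding.

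The libraries held 17451111 to 22034312 implied fragments in control and 18553187 to 23649205 in melatonin. Expression is given as FPKM, the fragments of a gene divided by its exon length and by the fragment total of that library, so levels can be compared between genes per length but are relative to the other transcripts of a library. Genes whose mean over the 8 libraries reached 1 FPKM were tested with limma on log2(FPKM + 1), with a threshold of an adjusted p of 0.05. Of the 10 genes 9 were tested and Hsd3b6 was below the filter. None of the 9 passed, and 0 of all 14738 tested genes did (0.0%), with 2821 of them at an unadjusted p under 0.05 by limma. Among the 13938 genes tested by limma-voom, 2720 had an unadjusted p under 0.05, and 0 passed. All 9 had a negative log2 fold change, as had 52.5% of the tested genes, with a median of -0.32 over the 9 against -0.01 over all tested genes. In 3 of the 9, Cyp17a1, Cyp11a1 and Mgarp, the unadjusted p was under 0.05 with a lower value in melatonin, which 9.74% of all tested genes also showed. Only in Mgarp, 1 of the 9, did all 4 melatonin values lie below all 4 controls, a pattern of 5.94% of the tested genes. RNA came from whole follicles, so fewer cells of a type and less RNA per cell cannot be told apart. Of the genes that mark theca cells, Cyp17a1 was at 15.4 to 23.2 FPKM in the controls and Insl3 at no more than 3.61. The 12 granulosa markers summed to at least 7146 FPKM in every library. A single gene and a sum of 12 are unlike measures, so these levels do not give the shares of cell types. Side-chain cleavage and Hsd3b genes are also known from granulosa and luteal cells, and these data do not separate the cell layers.

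**Figure D1:**
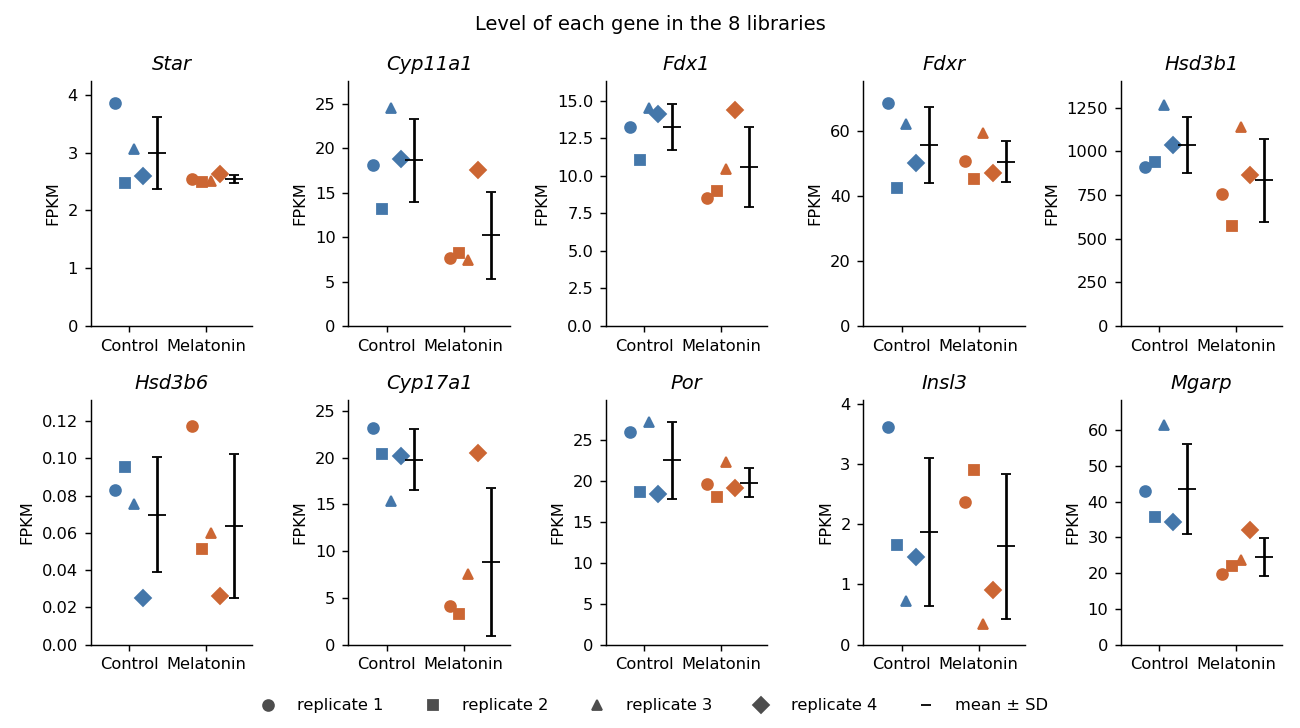
Level of each of the 10 genes in every library, in FPKM on a linear axis that starts at 0, with the mean ± SD of the 4 libraries of each group beside the points and a marker shape for each replicate number. Melatonin replicate 4 sits among the controls for Cyp11a1, Cyp17a1 and Fdx1, while replicates 1 to 3 lie below them.

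Delivery of cholesterol into mitochondria was represented by Star, the transport protein that limits acute steroid production. Star (ENSMUSG00000031574, mm10 chr8:25806555-25815982) had 3.85, 2.48, 3.07 and 2.59 FPKM in control replicates 1 to 4 and 2.55, 2.497, 2.503 and 2.64 FPKM in melatonin replicates 1 to 4. The melatonin values lay inside the control range, and the highest value of all was control replicate 1. The coefficient of variation was 20.8% in control and 2.56% in melatonin. The group means, 2.998 ± 0.62 and 2.55 ± 0.065 FPKM (SD, n = 4 each), gave a log2 fold change of -0.16 (95% interval -0.41 to 0.09, limma adjusted p = 0.443). Star rested on 178 to 317 recovered fragments per control library and 191 to 248 per melatonin library.

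Side-chain cleavage itself is carried out by CYP11A1, which turns cholesterol into pregnenolone. Cyp11a1 (ENSMUSG00000032323, chr9:58006411-58027023) had 18.1, 13.1, 24.5 and 18.7 FPKM in the controls and 7.60, 8.25, 7.44 and 17.5 FPKM with melatonin. Melatonin replicates 1 to 3 were below every control, and replicate 4 lay within the control range, at 94.2% of the control mean. The means were 18.6 ± 4.67 and 10.2 ± 4.90 FPKM (SD, n = 4 each), a log2 fold change of -0.86 ± 0.27 (SE; 95% interval -1.49 to -0.24) that did not pass (limma adjusted p = 0.169). Leaving out melatonin replicate 4 gave a value of -1.13 ± 0.18 (limma adjusted p = 0.180). With each library left out in turn, the Cyp11a1 value ranged from -1.13 to -0.725. Of its 4804 exon bases 145 are shared, on the same strand, with the non-coding gene model Gm17322.

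The electron carriers of this reaction had smaller log2 fold changes. Fdx1, ferredoxin 1 (ENSMUSG00000032051, chr9:51943306-51963556), had 13.2, 11.1, 14.5 and 14.1 FPKM in the controls and 8.54, 8.98, 10.4 and 14.4 FPKM with melatonin. As for Cyp11a1, melatonin replicates 1 to 3 were below every control and replicate 4 was within the control range. The log2 fold change was -0.32 ± 0.15 (SE; interval -0.66 to 0.03, limma adjusted p = 0.295). It was -0.46 ± 0.10 when melatonin replicate 4 was left out (limma adjusted p = 0.180). With each library left out in turn, the Fdx1 value ranged from -0.46 to -0.23. Fdxr, the reductase that passes electrons to ferredoxin (ENSMUSG00000018861, chr11:115268024-115277050), had 68.3, 42.4, 61.9 and 49.997 FPKM in the controls and 50.6, 45.1, 59.1 and 47.1 FPKM with melatonin. Its melatonin values lay within the control range. The Fdxr log2 fold change was -0.12 (interval -0.46 to 0.22, limma adjusted p = 0.682).

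Conversion of pregnenolone to progesterone depends on 3-beta-hydroxysteroid dehydrogenase, which mice encode in several neighbouring genes. Hsd3b1 (ENSMUSG00000027871, chr3:98852194-98859794) was the most abundant of the 10 genes and ranked 11 among all genes of the table by mean FPKM. It had 909, 942, 1264 and 1035 FPKM in the controls and 757, 574, 1138 and 865 FPKM with melatonin. Melatonin replicates 1, 2 and 4 were below all controls, and replicate 3 lay inside the control range. The means were 1038 ± 160 and 834 ± 236 FPKM (SD, n = 4 each), with a log2 fold change of -0.35 ± 0.20 (SE; interval -0.81 to 0.12, limma adjusted p = 0.381). After quantile normalization, which makes the distribution of values the same in all libraries, the difference was -0.17 on the log2 scale, and leaving out melatonin replicate 2 gave -0.18.

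Hsd3b6, a second isoform (ENSMUSG00000027869, chr3:98805504-98814443), was near the detection limit. It had 0.0832, 0.0954, 0.0756 and 0.0252 FPKM in the controls and 0.117, 0.0516, 0.0598 and 0.0261 FPKM with melatonin. The groups overlapped throughout, and the values rested on 1 to 3 fragments per control library and 1 to 5 per melatonin library, 10 in each group in all. At this depth no difference could be detected (two-sided exact permutation p = 0.8). Hsd3b2, Hsd3b3 and Hsd3b7 were no higher than 0.06 FPKM in any library. Hsd3b1 and Hsd3b6 each have 1119 coding bases, of which 89.99% are identical, and their longest identical run is 72 bases. The stretch below, from the GENCODE M21 transcripts, is one of the most divergent, with the 14 differing bases in capitals.
Hsd3b1 coding bases 55 to 114, chr3:98857851-98857910, minus strand: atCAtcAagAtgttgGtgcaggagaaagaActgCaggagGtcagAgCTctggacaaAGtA
Hsd3b6 coding bases 55 to 114, chr3:98810933-98810992, minus strand: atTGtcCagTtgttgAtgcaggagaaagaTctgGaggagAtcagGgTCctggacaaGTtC
How fragments from identical stretches were assigned is not given in the sources used here, so the few Hsd3b6 fragments are uncertain beside the 22931 to 51678 fragments per library of Hsd3b1.

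Androgen synthesis was represented by Cyp17a1, the 17-alpha-hydroxylase and lyase of theca cells (ENSMUSG00000003555, chr19:46667165-46673172). Its level was 23.2, 20.4, 15.4 and 20.2 FPKM in the controls and 4.10, 3.26, 7.54 and 20.4 FPKM with melatonin. Melatonin replicates 1 to 3 were at 4.97 FPKM on average, with the control mean 3.98 times as high, and each of them was below the lowest control. Replicate 4 was at 103% of the control mean, so the groups overlapped. The coefficient of variation was 16.4% in control and 90.1% in melatonin. Over all libraries the means were 19.8 ± 3.24 and 8.84 ± 7.96 FPKM (SD, n = 4 each), with a log2 fold change of -1.37 ± 0.45 (SE; interval -2.41 to -0.34) that did not pass (limma adjusted p = 0.175). Leaving out melatonin replicate 4 gave -1.85 ± 0.24 (interval -2.41 to -1.30, limma adjusted p = 0.127). Leaving out melatonin replicate 2 instead gave -1.07 (limma adjusted p = 0.303), the smallest change when any library was left out. The Cyp17a1 values rested on 733 to 1004 recovered fragments per control library and 152 to 943 per melatonin library. These numbers assume an exon length of 2166 bases, the smaller of 2 that gave whole fragments.

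Por, the oxidoreductase that supplies microsomal P450 enzymes such as CYP17A1 with electrons (ENSMUSG00000005514, chr5:135670033-135735326), had 25.9, 18.7, 27.3 and 18.4 FPKM in the controls. The melatonin libraries had 19.7, 18.1, 22.3 and 19.1 FPKM. These overlapped the controls, and the log2 fold change was -0.16 (interval -0.47 to 0.15, limma adjusted p = 0.536).

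Insl3, insulin-like 3, is a peptide hormone secreted by theca cells. Insl3 (ENSMUSG00000079019, chr8:71689214-71690575) had 3.61, 1.66, 0.728 and 1.46 FPKM in the controls and 2.38, 2.91, 0.346 and 0.905 FPKM with melatonin. The groups overlapped, and the lowest value in each was that of replicate 3. The log2 fold change was -0.16 (interval -1.06 to 0.75, limma adjusted p = 0.854), and it was 0.10 without control replicate 1 and 0.13 without melatonin replicate 3. The gene rested on 10 to 45 fragments per control library and 4 to 39 per melatonin library. It lies inside the 3′ part of Jak3, a kinase gene of blood cells, on the same strand. Insl3 shares 404 of its 623 exon bases (64.85%) with Jak3, so fragments of the 2 genes can be confused and the Insl3 level is uncertain. Jak3, named after its values were seen, had 6.89, 4.40, 4.14 and 2.59 FPKM in the controls and 6.42, 6.93, 2.81 and 3.83 FPKM with melatonin. Rxfp2, the receptor gene for the Insl3 hormone, was at 0.147 ± 0.0376 and 0.127 ± 0.0243 FPKM (SD, n = 4 each), below the filter.

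**Figure D2:**
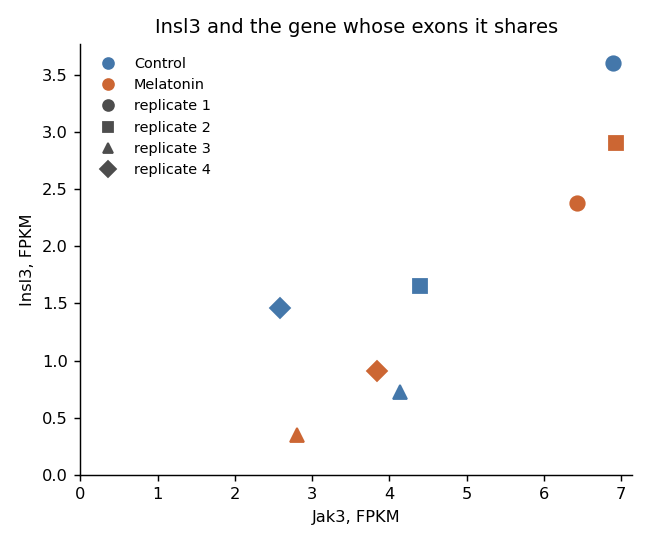
Insl3 against Jak3, both in FPKM on linear axes, with 1 point per library. The 3 libraries with Jak3 above 6 FPKM, control replicate 1 and melatonin replicates 1 and 2, also have the 3 highest Insl3 values.

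Mgarp encodes a mitochondrial protein abundant in steroid-producing cells. Mgarp (ENSMUSG00000037161, chr3:51388412-51396738) had 43.0, 35.7, 61.4 and 34.2 FPKM in the controls and 19.9, 22.1, 23.8 and 32.2 FPKM with melatonin. All 4 melatonin values were below all 4 controls, although melatonin replicate 4 came close to control replicate 4. The means were 43.6 ± 12.5 and 24.5 ± 5.39 FPKM (SD, n = 4 each), and the two-sided exact permutation p was 0.0286, the smallest that 4 against 4 libraries allow. The log2 fold change of -0.79 ± 0.20 (SE; interval -1.25 to -0.33) did not pass over all genes (limma adjusted p = 0.142). The fit that left out melatonin replicate 4 gave -0.93 ± 0.19 (limma adjusted p = 0.180). With each library left out in turn, the Mgarp value ranged from -0.93 to -0.62.

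**Figure D3:**
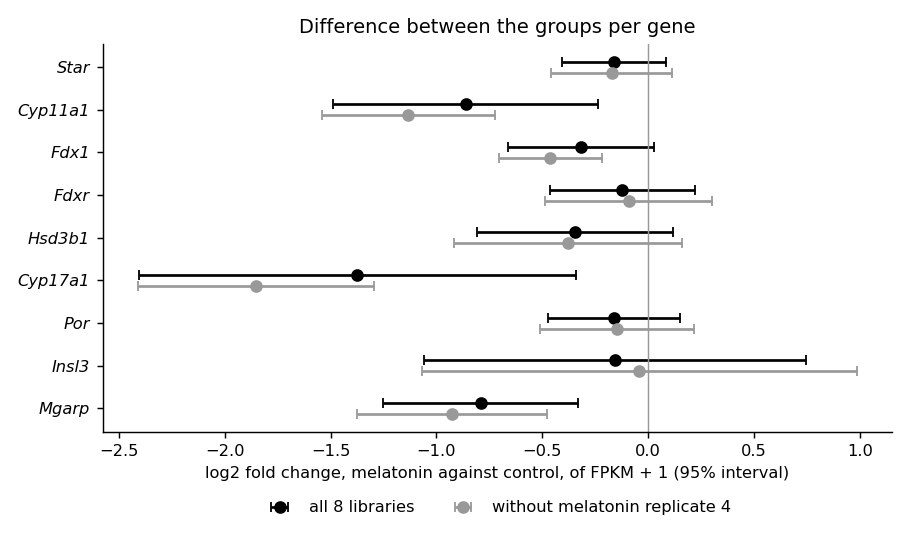
Log2 fold change of FPKM + 1 in melatonin against control with its 95% interval for the 9 tested genes, with all 8 libraries in black and without melatonin replicate 4 in grey. With all libraries the interval lies below 0 for Cyp11a1, Cyp17a1 and Mgarp, and without that replicate it also does for Fdx1, although no adjusted p passed in either fit. Among the libraries left out in turn, its removal gave the lowest values for these 4 genes, so the grey intervals are a description.

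Melatonin replicate 4 differed from the other melatonin libraries in several of the genes. Cyp17a1, Cyp11a1 and Fdx1, 3 of the 9 tested genes, had melatonin replicates 1 to 3 below all controls and replicate 4 within the control range, as had 291 of the 14738 tested genes (1.97%). Without melatonin replicate 4 the groups did not overlap in 4 of the 9 (Cyp17a1, Cyp11a1, Fdx1 and Mgarp) and, in the lower direction, in 8.24% of 14693 tested genes (15.8% in either direction). The same 4 had an unadjusted limma p under 0.05 in that fit, as had 7.95% of the tested genes in the lower direction. The 4 genes and the library left out were selected here by their values, so the comparison is a description. Of the 108 other listed genes tested, 4 (3.7%) shared the pattern. They were Nr5a1, whose product activates steroid enzyme genes, Lhcgr, the luteinizing hormone receptor through which theca androgen synthesis is driven, Cebpb, a transcription factor gene induced by gonadotropins, and Fshr, the follicle-stimulating hormone receptor of granulosa cells. Nr5a1 had 25.8, 26.7, 27.6 and 37.1 FPKM with melatonin against 33.9 to 38.6 in the controls. Lhcgr had 1.29, 1.44, 1.90 and 4.14 FPKM with melatonin against 2.90 to 5.19 in the controls. The implied depth of melatonin replicate 4, 21291659 fragments, lay between those of the other melatonin libraries.

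**Figure D4:**
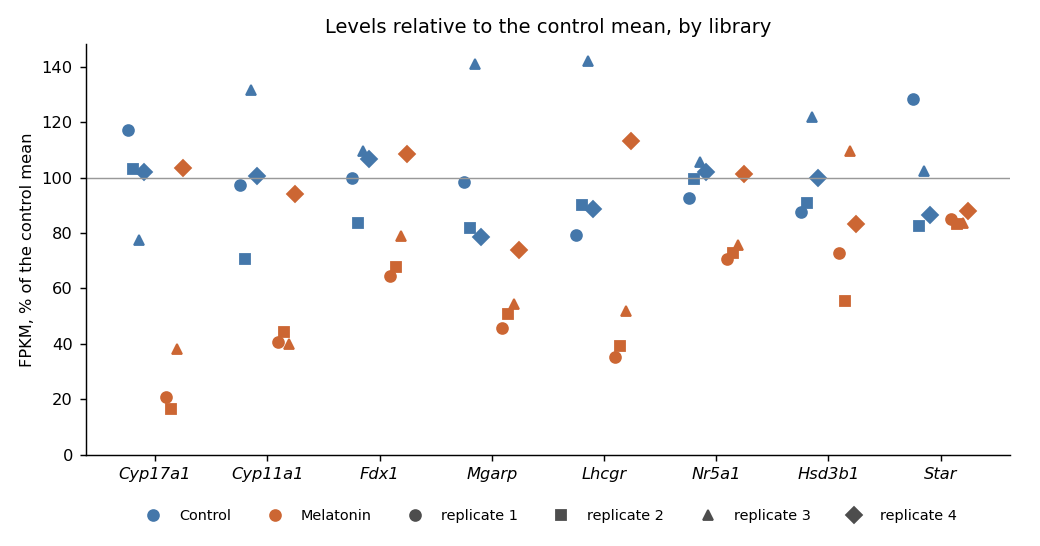
FPKM of 6 of the 10 genes and of Lhcgr and Nr5a1 in each library as a percent of the control mean, with a marker shape for each replicate number. For Cyp17a1, Cyp11a1, Fdx1, Lhcgr and Nr5a1 melatonin replicate 4 lies among the controls, at 103% for Cyp17a1, and the other melatonin libraries lie below them.

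Ranked by mean FPKM, which is per length, the control order was Hsd3b1, Fdxr, Mgarp, Por, Cyp17a1, Cyp11a1, Fdx1, Star, Insl3 and Hsd3b6. Ranges of neighbours did not overlap between Hsd3b1 and Fdxr (a ratio of means of 18.6), Mgarp and Por (1.93), Fdx1 and Star (4.41), and Insl3 and Hsd3b6 (26.7). The other neighbours in the control order overlapped. In melatonin the order was Hsd3b1, Fdxr, Mgarp, Por, Fdx1, Cyp11a1, Cyp17a1, Star, Insl3 and Hsd3b6, so Fdx1, Cyp11a1 and Cyp17a1 were in the opposite order. In control Cyp17a1 lay above Fdx1 without overlap (15.4 to 23.2 against 11.1 to 14.5 FPKM), while Cyp11a1 overlapped both. The place of Cyp17a1 depends on the authors' exon model, which differs from that of GENCODE M21. In melatonin all 3 ranges overlapped. Star, at 2.48 to 3.85 FPKM over all libraries, was thus the least abundant side-chain cleavage gene in both groups, while Hsd3b1 exceeded every other gene of the set in every library.

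Ratios within a library remove its overall scale. A set of 6 ratios was compared by a two-sided exact permutation test of log2 ratios, adjusted by the Benjamini-Hochberg method over the 6, and none passed. Cyp17a1 to Por was -0.16, 0.13, -0.83 and 0.14 on the log2 scale in the controls and -2.26, -2.47, -1.56 and 0.10 with melatonin. Replicates 1 to 3 with melatonin were again below all controls and replicate 4 was not (difference -1.37, exact permutation p = 0.0857, adjusted p = 0.514). Cyp17a1 to Cyp11a1 differed by -0.60 (exact permutation p = 0.2), and Fdx1 to Fdxr by -0.22 (exact permutation p = 0.371). Hsd3b1 to Cyp11a1 differed by 0.59 (exact permutation p = 0.257). Mgarp to Cyp11a1 was 1.22 ± 0.25 in the controls and 1.34 ± 0.33 with melatonin (SD, n = 4 each), a difference of 0.12 (exact permutation p = 0.571). The smaller difference in Mgarp to Cyp11a1 does not show that the 2 genes change alike. Insl3 to Cyp17a1 was -2.68 to -4.40 in the controls but spread from -0.16 to -4.50 with melatonin. It was highest in melatonin replicates 1 and 2, where Cyp17a1 was lowest (exact permutation p = 0.429). Jak3, which shares exons with Insl3, had 6.42 and 6.93 FPKM in those libraries and 6.89 FPKM in control replicate 1. The part of Jak3 fragments in this ratio was not tested.

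**Figure D5:**
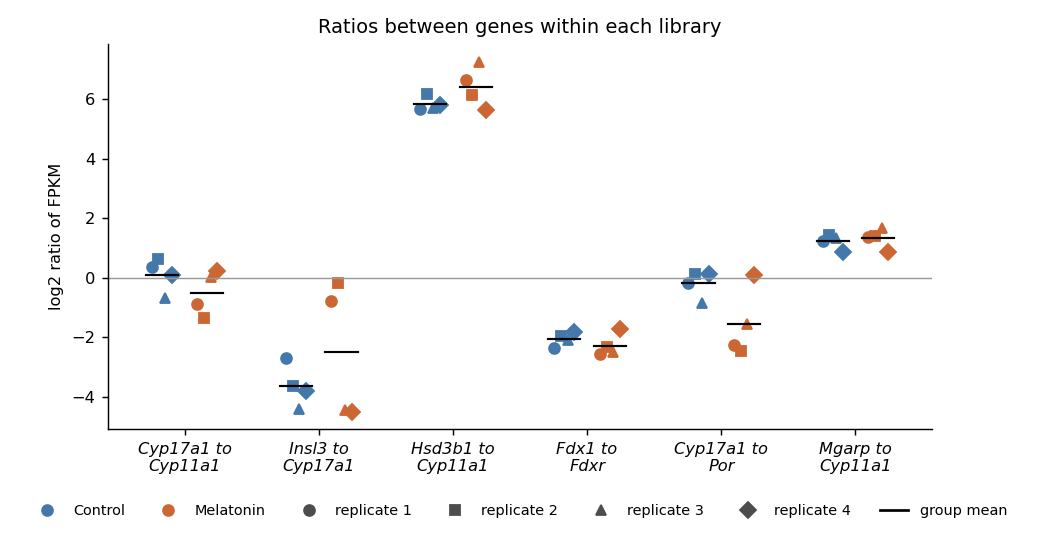
Log2 ratios of FPKM between pairs of the genes in each library, with a line at the mean of each group of 4. Cyp17a1 to Por and Insl3 to Cyp17a1 spread most in melatonin, and Mgarp to Cyp11a1 stays between 0.87 and 1.68 in all 8 libraries.

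Of 20 other listed steroid-converting enzymes 10 were tested and none passed, 6 had a negative log2 fold change and 4 a positive one (median -0.12), and 3 had an unadjusted p under 0.05, all lower. These were Hsd17b1, which reduces estrone to estradiol, Hsd11b2, which inactivates glucocorticoids, and Cyp19a1, aromatase, which uses the androgens made downstream of CYP17A1. Hsd11b2 had 83.8, 116, 81.1 and 96.7 FPKM in the controls and 45.2, 57.7, 68.8 and 73.2 FPKM with melatonin, without overlap (log2 fold change -0.63, limma adjusted p = 0.146). Hsd17b1 had 340 to 502 FPKM in the controls and 221 to 308 FPKM with melatonin, also without overlap (limma adjusted p = 0.132). Over all tested genes 9.74% were lower at an unadjusted p under 0.05 and 5.94% were lower without overlap. For Cyp19a1 the highest values were those of replicate 3 in each group, 23.0 and 9.25 FPKM, and the groups overlapped.

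Among listed genes that supply electrons or NADPH, those tested were mostly on the low side. Of 14 genes with values, 12 were tested and none passed, 10 had a negative and 2 a positive log2 fold change (median -0.19), and 7 had an unadjusted p under 0.05, all lower. In 4 of the 12 the groups did not overlap. Over all tested genes 9.74% were lower at that p and 5.94% were lower without overlap. Idh1, which makes NADPH in the cytosol, had 58.8 ± 3.41 FPKM in the controls and 48.5 ± 2.66 FPKM with melatonin (SD, n = 4 each; limma adjusted p = 0.121). Me1, malic enzyme, which also makes NADPH, had 28.7 ± 2.36 and 23.1 ± 2.34 FPKM, and Cyb5r3, the cytochrome b5 reductase gene, had 25.8 ± 0.78 and 22.4 ± 1.43 FPKM (limma adjusted p = 0.147 and 0.148). Control and melatonin values did not overlap in these 3 genes.

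Genes of cholesterol delivery to the side-chain cleavage enzyme had fold changes of both signs. All 17 listed genes were tested, none passed, and 9 had a negative and 8 a positive log2 fold change (median -0.01), with 6 at an unadjusted p under 0.05, all lower. In 3 of the 17 the groups did not overlap, all lower. Over all tested genes 9.74% were lower at that p and 5.94% were lower without overlap. Lrp8, a lipoprotein receptor gene, had 3.54, 4.68, 5.18 and 3.09 FPKM in the controls and 0.861, 1.22, 2.29 and 2.93 FPKM with melatonin. These groups did not overlap, and melatonin replicate 4 was again the highest of its group (log2 fold change -0.90, limma adjusted p = 0.147). Scarb1, the high-density lipoprotein receptor gene, had 25.1 to 35.5 FPKM in the controls and 18.7 to 24.7 FPKM with melatonin (adjusted p = 0.155 by limma). Tspo, a cholesterol-binding protein gene of the outer mitochondrial membrane, had 20.4 ± 2.80 and 16.01 ± 2.51 FPKM (SD, n = 4 each) with overlap.

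Regulators of steroid enzyme genes lay on both sides. Of 18 tested, of 19 listed, none passed, 12 had a negative and 6 a positive log2 fold change (median -0.05), and 4 lower and 3 higher ones had an unadjusted p under 0.05. Over all 14738 tested genes 1436 were lower (9.74%) and 1385 higher at that p. Gata4, a transcription factor gene of ovarian somatic cells, had 46.0 ± 13.3 FPKM in the controls and 29.6 ± 3.56 FPKM with melatonin (SD, n = 4 each; limma adjusted p = 0.165). Nr5a1 had 36.5 ± 2.01 and 29.3 ± 5.23 FPKM, and Cebpb had 25.0 ± 6.33 and 17.1 ± 2.78 (limma adjusted p = 0.180 and 0.197). The 3 higher ones, named after their values were seen, were Nr0b1, whose product represses steroidogenic factor 1, Esr2, an estrogen receptor gene of granulosa cells, and Creb1, a cyclic AMP responsive factor gene. Nr0b1 had 11.97 ± 3.88 and 16.6 ± 2.497 FPKM (log2 fold change 0.48, limma adjusted p = 0.246), with the highest value in melatonin replicate 4. The log2 fold change was 0.36 for Esr2 and 0.18 for Creb1.

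Other genes known from theca cells lay on both sides. Of 12 listed 7 were tested and none passed, 5 had a negative and 2 a positive log2 fold change (median -0.16), and Lhcgr had an unadjusted p under 0.05 (log2 fold change -0.60, limma adjusted p = 0.260). With a filter of 5 FPKM 2 of the 7 genes were left, Ptch1 and Aldh1a1, and their median was 0.16. Ptch1, a hedgehog receptor gene of theca cells, had 12.2 ± 2.85 and 13.7 ± 1.01 FPKM, and Aldh1a1, which makes retinoic acid, had 27.4 ± 3.90 and 29.95 ± 1.96 FPKM (SD, n = 4 each). The summed level of the 12 genes was 51.6 to 64.0 FPKM in control and 55.9 to 63.6 in melatonin libraries, 63.6 in melatonin replicate 4.

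Markers of the other cells of a follicle preparation were measured alongside, and no listed marker was at 0 in every library. For granulosa cells 12 of 12 markers had a negative log2 fold change (median -0.29) and 5 of them an unadjusted p under 0.05, against 52.5% and 9.74% of all tested genes in the lower direction. Hsd17b1 and Cyp19a1, both among the 5, are also in the list of steroid-converting enzymes, and the marker Foxl2 is in the regulator list. The summed level of the 12 granulosa markers was 8462 to 11134 FPKM in control and 7146 to 8238 in melatonin, without overlap. Summed surface epithelium markers (5 of 5 tested negative, median -0.38) were at 47.5 to 70.9 and 39.8 to 44.9 FPKM, also without overlap. Luteal markers (3 of 3 tested negative, median -0.42), which share Lhcgr with the theca list and Scarb1 with the delivery list, were at 38.3 to 56.3 and 28.6 to 37.1 FPKM. Stromal fibroblast markers (7 of 7 negative, median -0.30), which share Pdgfra with the theca list, overlapped between the groups, at 49.0 to 105 and 32.9 to 63.7 FPKM. Leukocyte markers (5 of 5 tested negative, median -0.40) also overlapped, at 24.3 to 117 and 21.9 to 39.6 FPKM. Both medians depended on a control library. The stromal median was -0.08 without control replicate 2, and the leukocyte median was -0.11 without control replicate 3. Smooth muscle (3 of 4 tested negative) and endothelial markers (4 of 4) were at 36.9 to 64.1 and 7.98 to 12.5 FPKM in control and at 36.8 to 63.3 and 6.16 to 10.2 FPKM in melatonin. Oocyte markers (9 of 10 negative, median -0.11) were at 312 to 494 and 299 to 393 FPKM. In melatonin replicate 4 the summed level was the highest of its group for the stromal (63.7 FPKM), endothelial (10.2 FPKM) and leukocyte (39.6 FPKM) markers and the lowest for the oocyte markers (299 FPKM). The part of these cell markers in the values of Cyp17a1, Cyp11a1, Fdx1 and Mgarp was not tested.

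The genes whose profiles over the 8 libraries were most like those of 4 of the genes were found by the root mean square difference of log2(FPKM + 1) after centring, with no test. Likeness over 8 libraries includes the group difference and the library differences together. For Cyp17a1, whose own profile had a root mean square of 0.95, the nearest symbol-bearing genes were Rps2-ps13 at 0.43, Elovl6 at 0.50, Dhrs3 at 0.52, Bambi-ps1 at 0.53 and Lrp8 at 0.54, so none was close. Rps2-ps13 and Bambi-ps1 are pseudogenes that can share fragments with their parent genes. Elovl6, a fatty acid elongase gene, was at 14.6 ± 3.23 FPKM in the controls and 8.10 ± 3.93 FPKM with melatonin (SD, n = 4 each), with 13.02 FPKM in melatonin replicate 4. Dhrs3, a retinaldehyde reductase gene, was at 15.9 ± 3.71 and 9.58 ± 5.11 FPKM, with 16.8 FPKM in that replicate. For Cyp11a1 (0.59) the nearest included Lhcgr at 0.23, Sema7a at 0.24, Mgarp at 0.24 and Mark1 at 0.26. Sema7a, a semaphorin gene, was at 178 ± 33.9 and 104 ± 35.6 FPKM (SD, n = 4 each). For Mgarp (0.49) they were Chst11 at 0.09, Susd3 at 0.10, Zmiz1 at 0.12, Chst8 at 0.12 and Cbfa2t3 at 0.14, of which Chst11 and Chst8 encode carbohydrate sulfotransferases. For Hsd3b1 (0.33) they were Snora2b, Fads2, Msmo1, Idi1 and Tle2, at 0.13 to 0.14. Fads2 is a fatty acid desaturase gene, and Msmo1 and Idi1 encode enzymes of cholesterol synthesis.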

How the data were processed

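Trizol was used to extract total RNA and a NEBNext Ultra kit to build libraries, per the labels' protocols. Per the submitters' processing notes, HISAT2 2.0.5 and the mm10 build were used. Not given in the sources used here are the counting tool, the annotation and whether strand was used. Values were deposited as FPKM per gene, per the file headers. The labels name no batch.

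With exon lengths from GENCODE M21 (mm10), found for 54495 of 55157 genes, 98.7% to 98.9% of values of up to 30 fragments in a library came out whole within 0.05 fragments, which gave the implied depths. Cyp17a1 did not come out whole with the 2769 bases of GENCODE M21, so its exon models differ between the authors' annotation and that release. Of the lengths searched from 200 to 6000 bases 2 gave whole fragments, and the smaller, 2166 bases, was used.

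Melatonin was compared with control by limma 3.58.1 (R 4.3.3; moderated variances with a trend on the mean, and group as the term fitted) on log2(FPKM + 1), over the 14738 genes whose mean in the 8 libraries reached 1 FPKM, with Benjamini-Hochberg adjustment and a threshold of 0.05. The fold changes are on that scale, which understates the change of low genes. Single values were compared by two-sided exact permutation over 70 assignments. The test was checked on simulated data. All 10 genes, the 3 tested members of each list with the smallest unadjusted p, Lhcgr, Rxfp2 and the 5 nearest profiles of 4 genes were to be named. Those of the cell marker lists are given as summed levels and named only where another result needs them, and gene models with no standard symbol and some genes not reported here are left out. The members and lists were chosen with earlier results of these data known. Alternatives were quantile normalization, median-ratio scaling, filters of none and 5 FPKM, a pseudocount of 0.1, array weights, the replicate number as a block, removal of GC content and length trends (splines with 5 degrees of freedom), limma-voom on recovered fragments, and leaving out each library.

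Tables and plots were made with Python 3.11.15, pandas 2.3.3, scipy 1.17.1 and matplotlib 3.10.9.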

Additional observations from a re-analysis of the deposited data

Results flagged for a closer look

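By Dixon's test at the 95% level, a library stood apart from the other 3 of its group in 9 of 116 groups of 4 libraries. The groups came from 58 quantities, and chance gives about 5% of groups. Several such flags would thus arise by chance alone, and no single flag is a result by itself. Among the androgen and side-chain cleavage genes the flag was on Cyp11a1 in melatonin replicate 4, at 17.5 FPKM. The same library stood apart for Nr5a1 at 37.1 FPKM and for Idh1 at 52.5 FPKM. Melatonin replicate 3 stood apart for Cyp19a1 at 9.25 FPKM and for the inhibin subunit gene Inhbb at 673 FPKM. Control replicate 3 stood apart for Me1 at 32.2 FPKM and for Scarb1 at 35.5 FPKM. Control replicate 2 stood apart for the collagen genes Col3a1 at 29.5 FPKM and Col1a2 at 20.5 FPKM. Cyp17a1 in melatonin replicate 4, at 20.4 FPKM, did not reach that level.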

How the results depend on the processing

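None of the 9 tested genes passed in any of the 18 alternatives. Adjusted p ranged over them from 0.118 to 0.372 for Cyp17a1, 0.127 to 0.362 for Cyp11a1, 0.102 to 0.332 for Mgarp, 0.180 to 0.529 for Fdx1 and 0.190 to 0.736 for Hsd3b1. Over all genes, 0 passed, but 1 did without a filter, 1 with the replicate block and the GC and length correction, and 0 to 1 when a library was left out (1 without control replicate 1). The cause was not tested. The number of the genes without overlap was 1, and 1 to 4 when a library was left out, with 2 without control replicate 2 or melatonin replicate 3 and 4 without melatonin replicate 4. Of all tested genes, 11.7% were without overlap in either direction with all libraries and 15.8% without melatonin replicate 4. That share was not taken for the other fits, so their counts have nothing to be set against. The log2 fold change of Insl3, -0.16, ranged from -0.39 to 0.13 when a library was left out, with 0.10 without control replicate 1 and 0.13 without melatonin replicate 3, with 4 to 45 fragments per library behind it. The other 8 genes kept a negative value in all alternatives run. At an unadjusted p under 0.05 the split of the 14738 tested genes was 1436 lower and 1385 higher. It was 1217 and 789 of 8855 genes with a filter of 5 FPKM, and 1040 and 1680 of 13938 genes by limma-voom.

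The labels do not say whether replicate numbers pair the samples. Deviations of same-numbered libraries correlated at -0.10 to 0.15, and 3 of 8 libraries correlated best with their own number. Such weak correlations over all genes cannot decide whether the samples were paired. With the replicate block 0 genes passed and 2776 had an unadjusted p under 0.05, against 2821 without it. The limma adjusted p fell with the block for Hsd3b1 (0.381 to 0.220), Fdx1 (0.295 to 0.211), Fdxr, Por and Insl3. It rose for Cyp17a1 (0.175 to 0.194), Star, Cyp11a1 and Mgarp. Low fragment numbers limit Hsd3b6 and Insl3.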
